A study of Chlorocebus aethiops with 24 samples.

Results

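Axons find their way by ligands that neighbouring cells display or secrete and by receptors on the growing tip, and 38 probe sets of this machinery were followed in the hippocampus of young male vervet monkeys. They were taken by symbol alone from a table of 11512 probe sets, of which 8730 carried 1 gene symbol each, for 8208 symbols in all. The names kept were semaphorins of classes 3 to 7, plexins, neuropilins, ephrins, Eph receptors, Slits, Robos, netrins, UNC5 receptors, DCC and the DPYSL family. The 38 probe sets stood for 37 symbols, since EPHA1 had 2 of them. They held 5 ephrins, 7 Eph receptor probe sets, 6 semaphorins, 6 plexins and neuropilins, 3 Slit and Robo genes, 7 netrin and UNC5 genes and 3 DPYSL genes. No probe set used here carried the symbol DCC. UNC50 matched the search only by its first letters. It encodes a protein of the Golgi and not a netrin receptor, so it was counted in the 38 but given apart.

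The arrays asked how alcohol before birth and later age relate to the messenger RNA of this brain region. FASD animals (fetal alcohol spectrum disorder model) were sons of alcohol-preferring dams that drank ethanol late in pregnancy, while the dams of control animals, also alcohol-preferring, drank sucrose of equal calories. The 4 groups were FASD at 2 years (5 animals), control at 2 years (6 animals), FASD at 5 months (5 animals) and control at 5 months (6 animals). All were captive-bred males of 1 colony with no engineered allele, and RNA of 1 hippocampus from each went onto 1 Affymetrix rhesus macaque array. A dam could have been offered ethanol in one breeding cycle and sucrose in another, and which animals shared a dam was not used here. Values are log2 intensities, so a difference of 1 is a change of 2 times. Vervet RNA bound to macaque probes, and probe sets differ in how well they bind, so the order of their levels is not an order of transcript abundance.

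Ephrins are held on the cell surface, by a lipid anchor in the A class and by a membrane-spanning stretch in the B class, and they bind Eph receptor tyrosine kinases on the cell they touch. Signals run into both cells, and the usual outcome in a growth cone is repulsion. Semaphorins signal through plexins, and the secreted class 3 members first bind neuropilins. Slits repel axons through Robo receptors, netrins attract through DCC and repel through UNC5 receptors, and DPYSL proteins, also called CRMPs, carry such signals to microtubules inside the growth cone. In the hippocampus these families are known for laying out the mossy fibre, Schaffer collateral and perforant pathways and, later, for shaping dendritic spines.

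Across all probe sets the 22 arrays correlated with each other at r between 0.972 and 0.995, and their mean log2 intensity lay between 7.90 and 8.0. FASD animal 2 at 5 months stood farthest out, having the lowest mean intensity and a mean r of 0.979 to the rest, the lowest of all. The labels of control animal 6 at 5 months disagree, 3 of them giving 5 months and the source name giving 2 years, and it was kept at 5 months. The title of a discarded FASD array at 5 months also carries the number 2. That number is thus shared by 2 FASD arrays at 5 months, and FASD animal 2 here is the one with values. The neuronal markers NEUROD6, NRGN, PROX1, SYT1 and WFS1, 5 of 13 listed, averaged 10.09 in FASD and 10.17 in control animals at 2 years. At 5 months they averaged 10.10 in FASD and 10.19 in control animals. By animal, this average ran from 9.78 (FASD animal 2 at 2 years) to 10.30 (control animal 5 at 2 years).

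Each contrast was fitted with limma over all 11512 probe sets, and adjusted p-values are Benjamini-Hochberg values over the same set. The alcohol contrast takes FASD minus control as the mean of the 2 ages. The age contrast takes 2 years minus 5 months as the mean of the 2 exposures. The interaction subtracts the 5-month effect of alcohol from the 2-year one. A limma p-value sets a difference of group means against the spread of animals within groups. Shared dams were not part of the fit. For alcohol 2 of the 38 guidance probe sets had an unadjusted p under 0.05, which is 5.26%, against 8.44% of all probe sets. One of them, EFNB1, was higher, where 2.43% of all probe sets were, and one, NTN4, was lower, where 6.01% were. For age 6 of 38 did, or 15.8%, against 9.57% of all probe sets. EPHA2, SLIT2 and SLIT3 were higher at 2 years, where 4.68% of all probe sets were, and SEMA3C, NTNG2 and EPHB6 were lower, where 4.89% were. The split of calls over the whole table depended on scaling. Of all probe sets with an unadjusted p under 0.05 for alcohol 28.8% were higher in FASD animals, against 51.5% once each array was centred on its median, and for the interaction 70.4% were positive, against 38.2% once centred.

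After adjustment SEMA3C was the one guidance gene to pass for age, among 16 probe sets or 0.139% of the whole table. For alcohol 0 of 38 passed, as did 0% of the table, and no guidance gene passed in any other contrast. The interaction had an unadjusted p under 0.05 in 2 of 38, PLXNA2 and NTN4, against 3.00% of all probe sets. Both were positive, as 2.11% of all probe sets were, while 0.886% were negative, and after adjustment 0% of the table passed. The median FASD minus control difference was 0.02 for the guidance probe sets and -0.01 for all probe sets. The median age difference was 0.02 for the guidance probe sets and 0.00 for all probe sets. As a group the guidance genes sat close to the middle of the array in both contrasts.

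**Figure D1:**
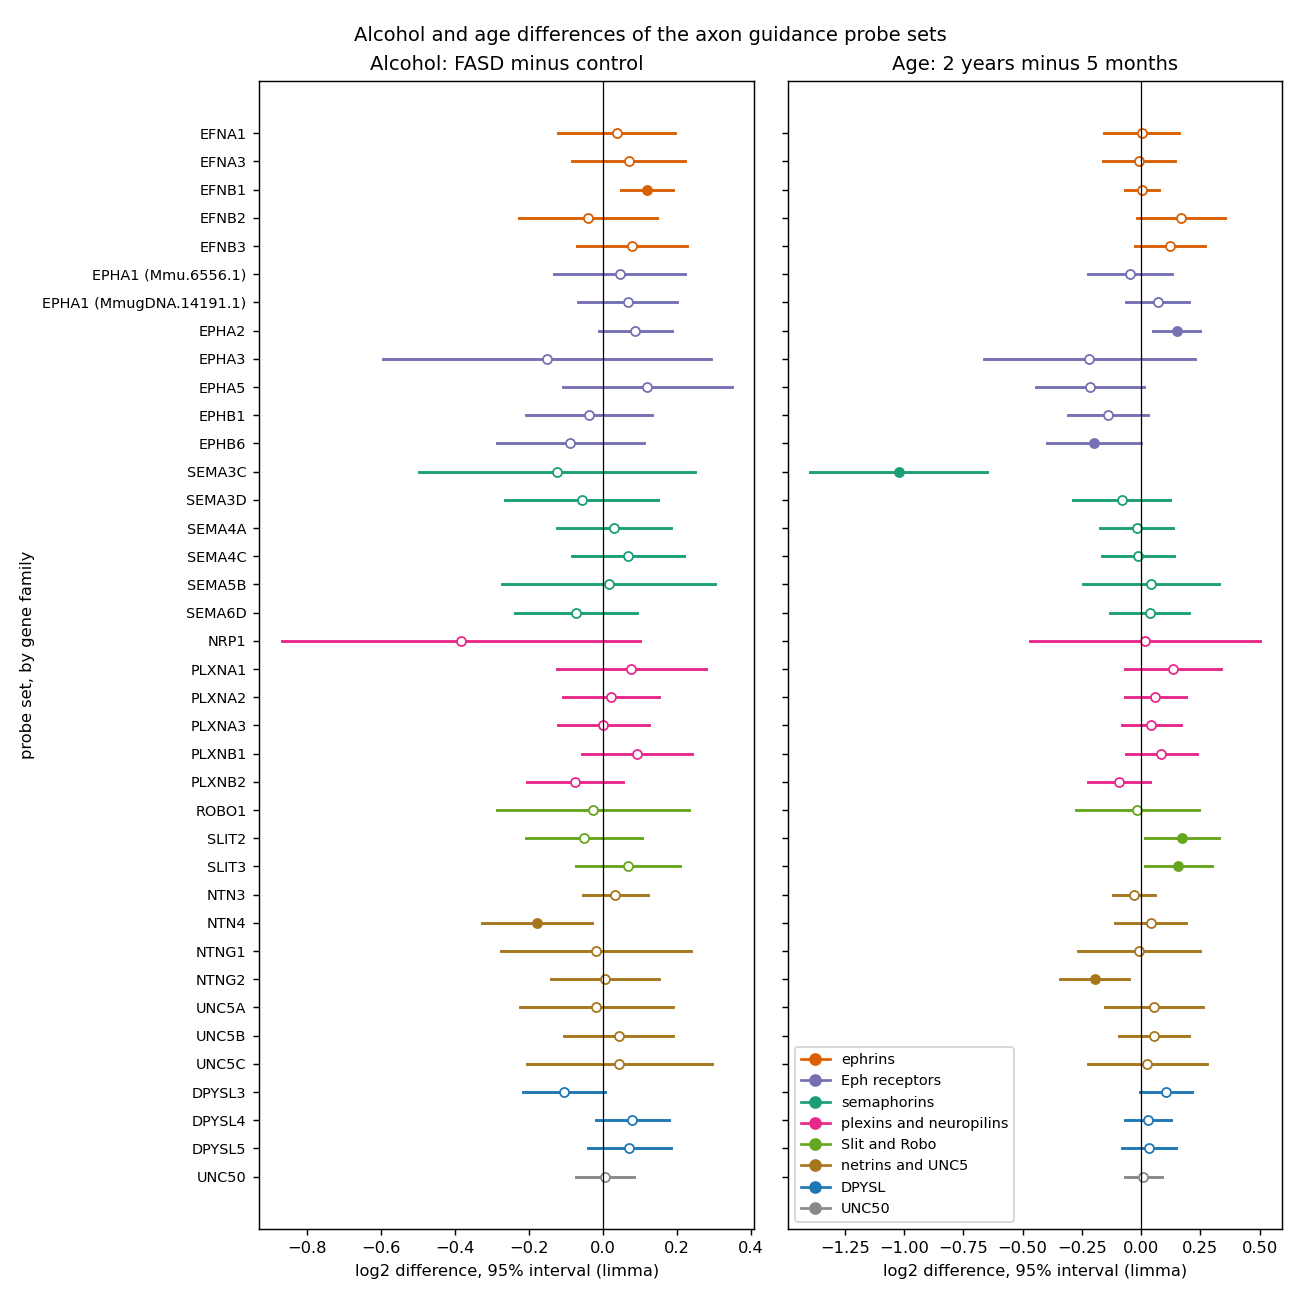
Log2 difference (x axis) of each of the 38 probe sets (y axis, by family), with its 95% interval from limma, for alcohol (FASD minus control, left) and age (2 years minus 5 months, right), where filled points have an unadjusted p under 0.05. SEMA3C, at -1.02 for age, stands far to the left of every other probe set, and the x axes of the 2 panels differ in scale.

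Of the 5 ephrins, the ligands of this pair of families, 4 (also after centring) had a positive alcohol difference, and the range was -0.04 (EFNB2) to 0.12 (EFNB1). EFNB1 encodes ephrin-B1, a transmembrane ligand known for boundary formation between cell groups. It had 7.83, 7.71, 7.65, 7.74 and 7.73 in FASD animals at 2 years, against a lowest, median and highest value of 7.51, 7.59 and 7.64 in control animals at 2 years. At 5 months it had 7.74, 7.71, 7.66, 7.66 and 7.70 in FASD animals, against 7.57, 7.61 and 7.67 in control animals. The 2-year groups did not overlap, the gap being as small as the step between 7.65 and 7.64, and 0.313% of all probe sets separated those groups. At 5 months the groups overlapped, as they did for every guidance probe set, with 0.443% of all probe sets separated.

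The alcohol difference of EFNB1 was 0.12 (standard error 0.03), or 109% of the control level, which gave limma p-values of 0.00198 unadjusted and 0.579 adjusted. An exact permutation of exposures within each age gave a two-sided p of 1.87e-05, not adjusted over probe sets. Leaving out any 1 animal gave 0.11 to 0.13. EFNB1 was the steadiest of the guidance genes. Its residual SD (spread of animals around their group means) of 0.05 was the smallest of the 38 and stood at percentile 0.1 of all probe sets, while the median residual SD was 0.18 in the guidance probe sets and 0.16 in all. So small an SD is pulled up by limma towards those of other probe sets. The unadjusted limma p of EFNB1 is therefore larger than its own SD alone would give. EPHA5, with an alcohol difference of 0.12 (standard error 0.11) equal in size to that of EFNB1, had an unadjusted p of 0.289.

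In bulk RNA, more cells of one type and more RNA per cell cannot be told apart. The endothelial markers CLDN5, PECAM1 and TEK, 3 of 6 listed, averaged 7.66 to 7.87 in FASD animals at 2 years, against 7.23 to 7.74 in control animals at 2 years. PECAM1 had an alcohol difference at 2 years of 0.27 (unadjusted p of 0.0112, adjusted p of 0.793). At 5 months the endothelial markers averaged 7.36 to 7.74 in FASD and 7.43 to 7.76 in control animals. Alcohol differences were also positive in 6 of 6 oligodendrocyte precursor and 4 of 4 immature neuron marker probe sets. So were 3 of 3 endothelial, 4 of 5 myelin, 4 of 6 microglia, 3 of 4 mural and fibroblast and 2 of 2 thalamic and striatal ones. They were positive in 1 of 5 neuronal, 0 of 5 astrocyte, 0 of 3 interneuron and 0 of 1 choroid plexus marker probe sets. Of all probe sets 46.8% were positive, against 52.9% once each array was centred on its median. The part of these cells in the EFNB1 difference was not tested.

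The other ephrins varied more between animals. EFNB3 (ephrin-B3, a midline ligand that axons meet) had means of 9.99 ± 0.13 in FASD and 9.87 ± 0.13 in control animals at 2 years, and 9.83 ± 0.26 in FASD and 9.79 ± 0.14 in control animals at 5 months (SD). EFNB2 (ephrin-B2, also the ligand of arterial endothelium) had the largest age difference of the ephrins, 0.17 (standard error 0.09), which gave limma p-values of 0.0741 unadjusted and 0.582 adjusted. It was 0.26 in FASD animals and 0.08 in control animals. EFNA1 and EFNA3, lipid-anchored ligands, had age differences of 0.00 and -0.01. None of the 5 ephrins had an unadjusted p under 0.05 for age.

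Of the 7 Eph receptor probe sets 2 had a positive age difference, with a median of -0.14, while 51.5% of all probe sets were positive. EPHB6, lower at 2 years, and EPHA2, higher, were the 2 with an unadjusted p under 0.05, and EPHA1 counts with both of its probe sets. EPHB6 encodes a member whose kinase domain is inactive. It had 7.33, 7.52, 7.74, 7.37 and 7.57 in FASD animals at 2 years, against 7.57, 7.75, 7.55, 7.67 and 7.42 in FASD animals at 5 months. Control animals had a lowest, median and highest value of 7.15, 7.43 and 7.93 at 2 years and of 7.42, 7.81 and 8.25 at 5 months. The age groups overlapped in both exposures. Its age difference was -0.20 (standard error 0.10, unadjusted p of 0.0498, adjusted p of 0.521), and 16 of the 22 fits with 1 animal left out put that p above 0.05. Exact permutation gave a two-sided p of 0.0535 and the methods' analysis of variance an unadjusted p of 0.0678. Without control animal 6 at 5 months the limma p was 0.0592, and without FASD animal 2 at 5 months 0.0594.

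EPHA2, a receptor best known from epithelium and vessel walls, had a positive age difference. It had 5.26, 5.44, 5.43, 5.22 and 5.37 in FASD animals at 2 years, against 5.07, 5.18, 5.21, 5.18 and 5.24 in FASD animals at 5 months. In control animals it ran over 5.02, 5.24 and 5.37 at 2 years (lowest, median and highest), against 5.01, 5.09 and 5.25 at 5 months. Older animals were mostly higher, with overlap in both exposures. The age difference was 0.15 (standard error 0.05, unadjusted p of 0.00471, adjusted p of 0.254), and an exact permutation of ages within each exposure gave a two-sided p of 0.00239. It was 0.14 to 0.17 with any 1 animal left out. These are dim values, since the mean of EPHA2 stood at percentile 8.1 of all probe sets.

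EPHA5, a receptor of hippocampal neurons for A-class ephrins, had a bright signal and a wide one. Its means were 9.95 ± 0.27 in FASD and 9.70 ± 0.38 in control animals at 2 years, against 10.04 ± 0.23 in FASD and 10.04 ± 0.17 in control animals at 5 months (SD). In control animals its age difference was -0.34 (unadjusted p of 0.0312, adjusted p of 0.81), and in FASD animals it was -0.09 (unadjusted p of 0.59). The test of that difference, the interaction, gave 0.25 (standard error 0.22, unadjusted p of 0.264).

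EPHA1 allowed a check within 1 gene. Its probe set MmugDNA.14191.1.S1_at had an age difference of 0.07 (standard error 0.06) and its other probe set one of -0.05 (standard error 0.09). The alcohol differences were 0.07 for MmugDNA.14191.1.S1_at and 0.05 for the other. Neither probe set had an unadjusted p under 0.05 in any contrast, and they differed in sign for age. EPHB1 (a receptor of B-class ephrins) had an age difference of -0.14 and EPHA3 one of -0.22, with standard errors of 0.08 and 0.21.

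SEMA3C, a secreted class 3 semaphorin that signals through neuropilins and plexins, showed the largest change of all 38. Its mean level stood at percentile 26.8 of all probe sets. It had 6.31, 5.19, 6.17, 7.33 and 6.46 in FASD animals at 2 years, against 7.16, 7.29, 7.36, 7.53 and 7.31 in FASD animals at 5 months. In control animals it had 5.99, 6.25 and 7.17 at 2 years (lowest, median and highest), against 7.21, 7.32 and 7.79 at 5 months. Control animals of the 2 ages did not overlap, which held for 0.434% of all probe sets. In FASD animals 4 of 5 at 2 years lay below every 5-month animal, and animal 4, at 7.33, lay among them.

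SEMA3C fell with age by 1.02 on the log2 scale (standard error 0.18), to 49.2% of the 5-month level, with an adjusted p of 0.0155 in limma. An exact permutation of ages within each exposure gave a two-sided p of 7.73e-05. Plain analysis of variance with both factors, the test the methods name, gave p-values of 6.87e-05 unadjusted and 0.0617 adjusted. Leaving out any 1 animal gave -1.15 to -0.88 and adjusted p-values up to 0.0378, the value without FASD animal 2 at 5 months. Without control animal 6 at 5 months it was -1.04 (adjusted p of 0.0273).

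The spread of SEMA3C also widened with age. Its SD was 0.76 in FASD and 0.48 in control animals at 2 years, against 0.13 in FASD and 0.26 in control animals at 5 months, and its residual SD stood at percentile 98.5. No test of spread was made. Alcohol was hardly visible in it, at -0.12 (standard error 0.18, unadjusted p of 0.497), with a 95% interval of -0.50 to 0.25. The interaction was -0.02 (standard error 0.36).

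Of the immature neuron markers, SOX4 fell in the same contrast. Of 8 listed, DCX, SOX4, SOX11 and TUBB3 were measured, and their mean was 9.07 to 9.89 in FASD and 9.0 to 9.44 in control animals at 2 years, against 9.71 to 9.83 in FASD and 9.53 to 9.78 in control animals at 5 months. SOX4 had an age difference of -0.62 (adjusted p of 0.00556), SOX11 one of -0.61 (adjusted p of 0.0614), DCX one of -0.37 (adjusted p of 0.139) and TUBB3 one of 0.01. The list was made with the result for SOX4 known, and its part in the SEMA3C change was not tested.

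The other 5 semaphorins stayed near 0 with age, from -0.08 (SEMA3D) to 0.04 (SEMA5B), and none had an unadjusted p under 0.05 in any contrast. SEMA3D is the second secreted class 3 member, SEMA4A and SEMA4C are membrane-bound class 4 members, SEMA5B carries thrombospondin repeats and SEMA6D is a transmembrane ligand that also acts as a receptor. Alcohol differences of the 6 semaphorins ran from -0.12 to 0.07, with 3 positive and 3 negative. For SEMA3D the 95% interval of the age difference was -0.29 to 0.12, so a change of the size seen in SEMA3C lay outside it.

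**Figure D2:**
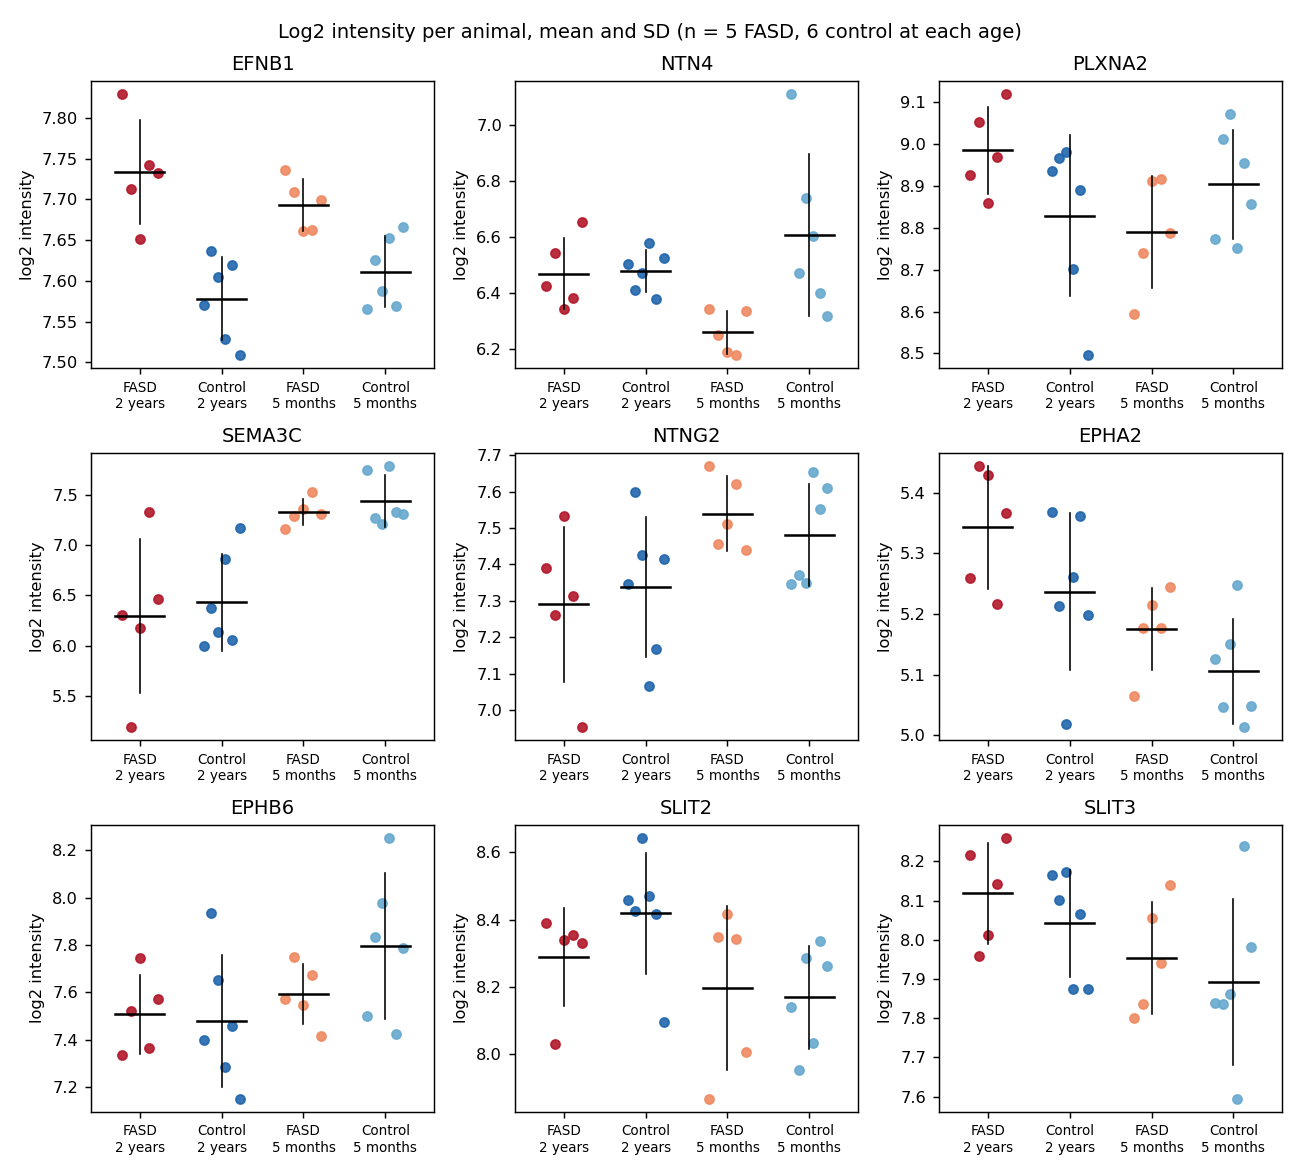
Log2 intensity (y axis, own scale per panel) of 9 guidance probe sets in each animal, in the order FASD 2 years, control 2 years, FASD 5 months and control 5 months, with the mean (horizontal line) and SD (vertical line) of 5 FASD or 6 control animals. In SEMA3C the control animals at 2 years, up to 7.17, lie below those at 5 months, from 7.21, and in NTN4 the FASD animals at 5 months sit at 6.18 to 6.34.

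Plexins, the signalling receptors of semaphorins, and neuropilin-1, their co-receptor, showed no unadjusted p under 0.05 for alcohol or age in 6 probe sets. A positive age difference was seen in 5 of the 6, against 51.5% of all probe sets. PLXNA1 had 0.13 (standard error 0.10), but 0.06 without FASD animal 2 at 5 months. PLXNA2, a receptor for class 6 semaphorins in mossy fibre layering in mice, had alcohol differences of opposite sign at the 2 ages. It had 8.93, 9.05, 8.86, 8.97 and 9.12 in FASD animals at 2 years, against 8.50, 8.91 and 8.98 in control animals at 2 years (lowest, median and highest). At 5 months it had 8.59, 8.74, 8.91, 8.92 and 8.79 in FASD animals, against 8.75, 8.91 and 9.07 in control animals. FASD values were on average higher at 2 years and lower at 5 months, with overlap at both ages.

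The FASD minus control difference of PLXNA2 was 0.16 at 2 years and -0.11 at 5 months. The interaction was 0.27 (standard error 0.13, unadjusted p of 0.043), and its adjusted p was near 1. It held that unadjusted p in 11 of the 22 fits with 1 animal left out and lost it in the other 11. FASD animal 2 at 5 months, the lowest of its group, was among those 11, with 0.22 (unadjusted p of 0.0915) when it was left out. Centring each array on its median gave 0.23 (unadjusted p of 0.0614).

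Slits, the secreted repellents, both had higher values at 2 years. SLIT2 had 8.39, 8.03, 8.34, 8.35 and 8.33 in FASD animals at 2 years, against 7.87, 8.35, 8.42, 8.34 and 8.0 in FASD animals at 5 months. In control animals it had 8.09, 8.44 and 8.64 at 2 years (lowest, median and highest), against 7.95, 8.20 and 8.34 at 5 months. SLIT3 had 8.22, 7.96, 8.01, 8.14 and 8.26 in FASD animals at 2 years, against 7.80, 7.84, 8.06, 7.94 and 8.14 in FASD animals at 5 months. Its control values were 7.87, 8.08 and 8.17 at 2 years, against 7.59, 7.85 and 8.24 at 5 months. Both genes overlapped between ages in both exposures.

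The age difference was 0.17 for SLIT2 (standard error 0.08, unadjusted p of 0.0333, adjusted p of 0.462) and 0.16 for SLIT3 (standard error 0.07, unadjusted p of 0.0303, adjusted p of 0.451). Leaving out 1 animal at a time, the unadjusted p of SLIT2 lay above 0.05 in 8 of 22 fits and that of SLIT3 in 7. Without FASD animal 2 at 5 months they were 0.0812 for SLIT2 and 0.0597 for SLIT3. ROBO1, the Slit receptor on the array, had an age difference of -0.02 (standard error 0.13), and its SD of 0.58 in FASD animals at 5 months was above the 0.14 to 0.24 of the other 3 groups. FASD animal 2 at 5 months had 7.31, against 8.08 to 8.75 in the others of its group, and without it the age difference was -0.13.

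NTN4, a netrin of basement membranes that lies outside the DCC-binding group, had its negative alcohol difference at the younger age. Its signal was rather dim, with a mean at percentile 20.6 of all probe sets. At 2 years it had 6.43, 6.54, 6.34, 6.38 and 6.65 in FASD animals, against 6.38, 6.49 and 6.58 in control animals (lowest, median and highest). At 5 months it had 6.34, 6.25, 6.19, 6.18 and 6.34 in FASD animals, against 6.32, 6.54 and 7.11 in control animals. The 2-year groups covered one another, and at 5 months the FASD animals lay at the bottom of the control range with slight overlap. FASD animals at 2 years all lay above FASD animals at 5 months, by a gap smaller than 0.01, where 1.31% of all probe sets did not overlap.

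The alcohol difference of NTN4 was -0.01 at 2 years and -0.35 at 5 months (standard error 0.10 each), which gave limma p-values of 0.00233 unadjusted and 0.839 adjusted at 5 months. An exact permutation at 5 months gave a two-sided p of 0.0173. The interaction was 0.34 (standard error 0.14, unadjusted p of 0.0269, adjusted p near 1). It was 0.24 to 0.40 with any 1 animal left out, and without FASD animal 6 at 2 years its unadjusted p was above 0.05. Centring each array on its median gave 0.30 (unadjusted p of 0.0642). Averaged over both ages, alcohol gave -0.18 (standard error 0.07, unadjusted p of 0.0208, adjusted p of 0.579). Without control animal 6 at 5 months the 5-month difference was -0.41 (unadjusted p of 0.000498).

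At 5 months the averaged oligodendrocyte lineage markers did not overlap between exposures, though none of their probe sets passed an adjusted p under 0.05. Taken singly, 0.443% of all probe sets separated these groups. Precursor markers (BCAS1, CSPG4, GPR17, OLIG2, SOX10 and VCAN, 6 of 8 listed) averaged 8.0 to 8.28 in FASD animals and 7.70 to 7.91 in control animals. Myelin markers (CNP, MAL, MBP, MYRF and UGT8, 5 of 12) averaged 10.19 to 10.65 in FASD animals and 9.92 to 10.17 in control animals. Not every gene followed, since CNP had an alcohol difference of -0.07 at 5 months and CSPG4 one of 0.01. Interneuron markers (GAD1, LHX6 and VIP, 3 of 7) averaged 8.23 to 8.47 in FASD animals and 8.36 to 8.73 in control animals. Of these, GAD1 had -0.34 (limma unadjusted p of 0.00243, adjusted p of 0.849). Mural and fibroblast markers (COL1A2, COL3A1, DCN and LUM, 4 of 9) averaged 6.98 to 8.23 in FASD animals and 6.67 to 7.70 in control animals. The part of these cells in the NTN4 difference was not tested.

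Of the other netrin genes, NTNG2, a lipid-anchored netrin-G that binds a synaptic adhesion partner and not DCC or UNC5, was lower at 2 years. It had 7.39, 7.26, 7.53, 7.31 and 6.95 in FASD animals at 2 years, against 7.67, 7.46, 7.51, 7.62 and 7.44 in FASD animals at 5 months. In control animals it had 7.07, 7.38 and 7.60 at 2 years (lowest, median and highest), against 7.35, 7.46 and 7.65 at 5 months. The age groups overlapped in both exposures. The age difference was -0.20 (standard error 0.07, unadjusted p of 0.0106, adjusted p of 0.329), and exact permutation gave a two-sided p of 0.0108. It was -0.23 to -0.15 with any 1 animal left out. Its relative NTNG1 had -0.01 (standard error 0.12), with a 95% interval of -0.27 to 0.25 that holds the value of NTNG2.

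NTN3 was steady, with age and alcohol differences of -0.03 and 0.03 (standard error 0.04). The UNC5 receptors UNC5A, UNC5B and UNC5C, which turn netrin into a repellent, had alcohol differences of -0.02 to 0.04 and age differences of 0.03 to 0.05. None had an unadjusted p under 0.05 in any contrast. UNC5C had -0.08 for alcohol at 2 years and 0.17 at 5 months, with an interaction of -0.24 (standard error 0.24).

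DPYSL3, DPYSL4 and DPYSL5, the proteins that pass guidance signals to the cytoskeleton, gave small differences. DPYSL3 had means of 13.23 ± 0.10 in FASD and 13.31 ± 0.12 in control animals at 2 years, and 13.11 ± 0.10 in FASD and 13.23 ± 0.14 in control animals at 5 months (SD), at percentile 99.7 of the table. Its alcohol difference was -0.10 (standard error 0.05, unadjusted p of 0.0651, adjusted p of 0.62), against 0.08 for DPYSL4 and 0.07 for DPYSL5. UNC50 had 0.01 for alcohol and 0.01 for age (standard error 0.04 each).

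Each family held dim and bright probe sets, given as mean log2 level over all animals with the percentile in the whole table. Ephrins ran from 7.65 (EFNB1, percentile 41.7) to 9.87 (EFNB3, percentile 85.6), and Eph receptors from 5.21 (EPHA2, percentile 8.1) to 9.93 (EPHA5, percentile 86.2). Semaphorins ran from 6.00 (SEMA3D, percentile 14.6) to 9.58 (SEMA6D, percentile 81.5), and plexins and neuropilin-1 from 7.54 (PLXNB2, percentile 39.5) to 9.01 (PLXNA1, percentile 72.2). SLIT3 (8.0) and SLIT2 (8.27) bounded the Slit and Robo genes, UNC5C (6.09) and UNC5A (8.25) the netrin genes, and DPYSL4 (7.31) and DPYSL3 (13.22) the DPYSL genes. Brightness here includes how well each probe set binds vervet RNA.

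Within each age and each exposure the counts were small and lay within a few probe sets of the share of the whole table. For alcohol at 2 years 1 of 38 (EFNB1) had an unadjusted p under 0.05, against 6.05% of all probe sets. At 5 months 1 of 38 (NTN4) did, against 4.83%. For age in FASD animals 4 of 38 did, or 10.5%, against 6.99% of all probe sets. These were SEMA3C and NTNG2, lower at 2 years, and EPHA2 and PLXNA2, higher. For age in control animals 4 of 38 did, also 10.5%, against 5.55%, namely SEMA3C, EPHB6 and EPHA5, lower, and SLIT2, higher. After adjustment 0 of 38 and 0% of all probe sets passed in each of these 4 contrasts.

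Alcohol differences at 2 years and at 5 months rest on separate animals, so their signs can be set side by side. They had the same sign in 22 of 38 guidance probe sets, or 57.9%, against 57.5% of all probe sets. Age differences in FASD and in control animals had the same sign in 21 of 38, or 55.3%, against 57.1%. Neither share stood away from the rest of the array.

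Taken by family, ephrins and Eph receptors had positive alcohol differences in 9 of 12 probe sets at 2 years and in 6 of 12 at 5 months, with medians of 0.08 and 0.00. All probe sets had medians of 0.01 and -0.03 in the same contrasts. Semaphorins, plexins and neuropilin-1 had positive ones in 6 of 12 at 2 years and in 3 of 12 at 5 months, with medians of 0.01 and -0.05. The interaction was positive in 10 of 12 ephrin and Eph probe sets and in 8 of 12 of the semaphorin and plexin probe sets, while 60.0% of all probe sets were positive. Its median was 0.10 in the ephrin and Eph set and 0.05 in the semaphorin and plexin set, against 0.03 in all. Centring each array left 8 of 12 positive in the ephrin and Eph set and 6 of 12 in the semaphorin and plexin set, where 46.0% of all probe sets were positive. It also moved the 5-month alcohol counts to 8 of 12 and 6 of 12. No difference between these families was tested.

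**Figure D3:**
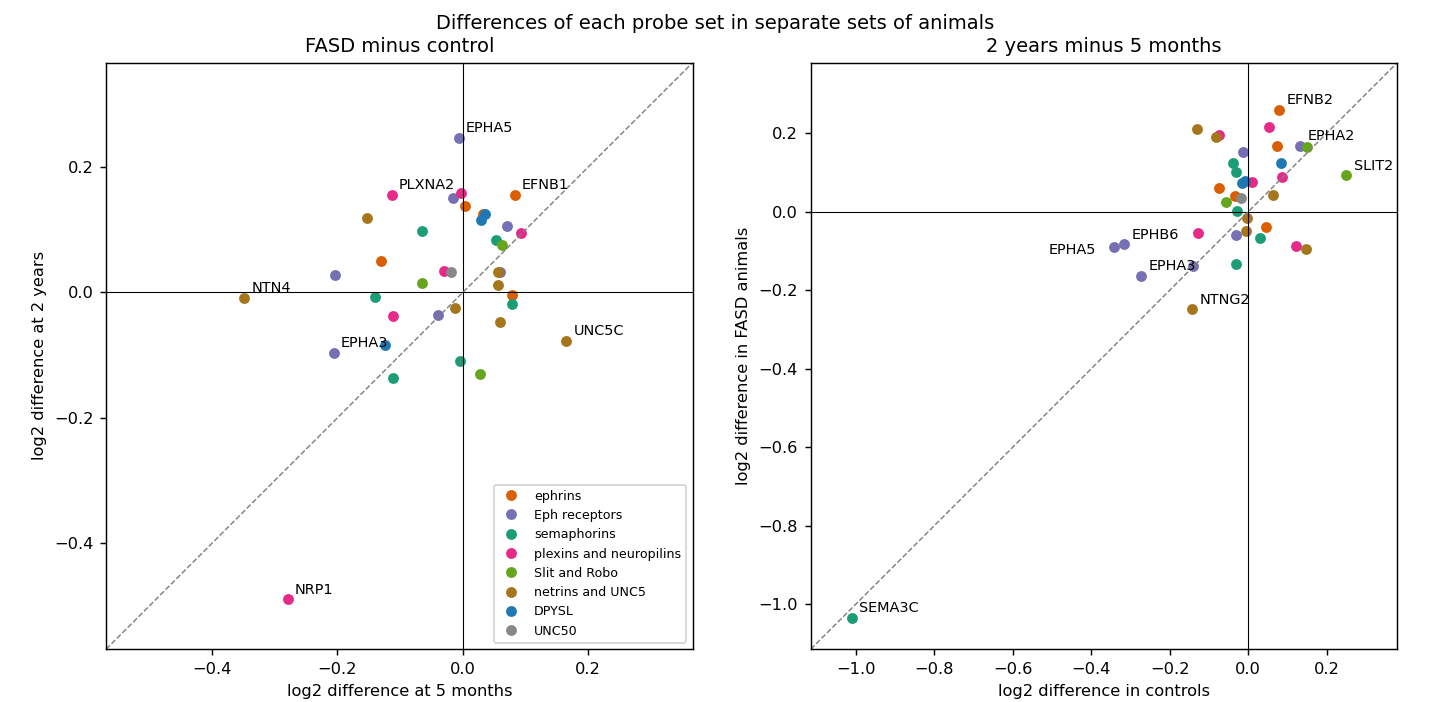
Log2 difference of each probe set in 2 separate sets of animals. Left, FASD minus control at 2 years (y axis) against 5 months (x axis), right, 2 years minus 5 months in FASD (y axis) against control animals (x axis), with colours for families and a dashed line of equality. NTN4 has -0.01 at 2 years and -0.35 at 5 months, and SEMA3C lies on the line at -1.04 and -1.01.

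The guidance probe sets differed from one another most in how far animals of 1 group lay apart. NRP1, the co-receptor neuropilin-1, had a residual SD of 0.61 (percentile 99.5), EPHA3 one of 0.55 (percentile 99.3) and SEMA5B one of 0.36 (percentile 95.9), against 0.05 for EFNB1. In NRP1 1 animal lay far below the rest in 3 of the 4 groups. It was animal 2 of FASD at 2 years, with 6.55 against 7.81 to 8.14 in the others of its group, animal 2 of control at 2 years, with 6.97 against 8.04 to 8.65, and animal 2 of FASD at 5 months, with 6.57 against 7.87 to 8.36. In control animals at 5 months NRP1 ran from 7.51 to 8.59 without such a gap. The 3 low animals also had the lowest averages of the neuronal markers. These were 9.78, 9.945 and 9.81 in the same order, against 10.09 to 10.30 in all other animals. In the fit with array weights they had the lowest weights, 0.41, 0.38 and 0.27, the next being 0.64. The part of this shared feature in the NRP1 values was not tested. The labels do not say that a number shared across groups marks a shared dam or batch.

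NRP1 had the most negative alcohol difference of the 38, -0.38 (standard error 0.23, unadjusted p of 0.115, adjusted p of 0.653), with a 95% interval of -0.87 to 0.10. At 2 years it was -0.49 and at 5 months -0.28. Single animals changed the size of these values and, at 5 months, also the sign. Without FASD animal 2 at 5 months the alcohol difference was -0.23 and the 5-month difference turned to 0.03. Without FASD animal 2 at 2 years the 2-year difference was -0.20. Without control animal 2 at 2 years the alcohol difference was -0.51 (unadjusted p of 0.0247, adjusted p of 0.287).

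EPHA3, a receptor for A-class ephrins, spread over a range of 5.18 to 6.24 in FASD and 5.04 to 6.47 in control animals at 2 years, and of 5.44 to 6.51 in FASD and 5.00 to 6.51 in control animals at 5 months. It was dim, at percentile 12.9 of the table. SEMA5B was tight in control animals at 5 months, with an SD of 0.12, and wide in FASD animals at 5 months, with an SD of 0.59, where animal 2 had 7.16 and the others 8.22 to 8.61. PLXNB2 (plexin-B2, a receptor for class 4 semaphorins) had 7.94 in control animal 2 at 2 years, against 7.32 to 7.54 in the others of that group.

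The same animals recurred at the edges. FASD animal 2 at 5 months was the lowest of its group in 16 and the highest in 11 of the 38 guidance probe sets. Control animal 2 at 2 years was the highest of its group in 16, and control animal 6 at 2 years the lowest in 17. That FASD animal is also the one whose whole array stood farthest out.

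**Figure D4:**
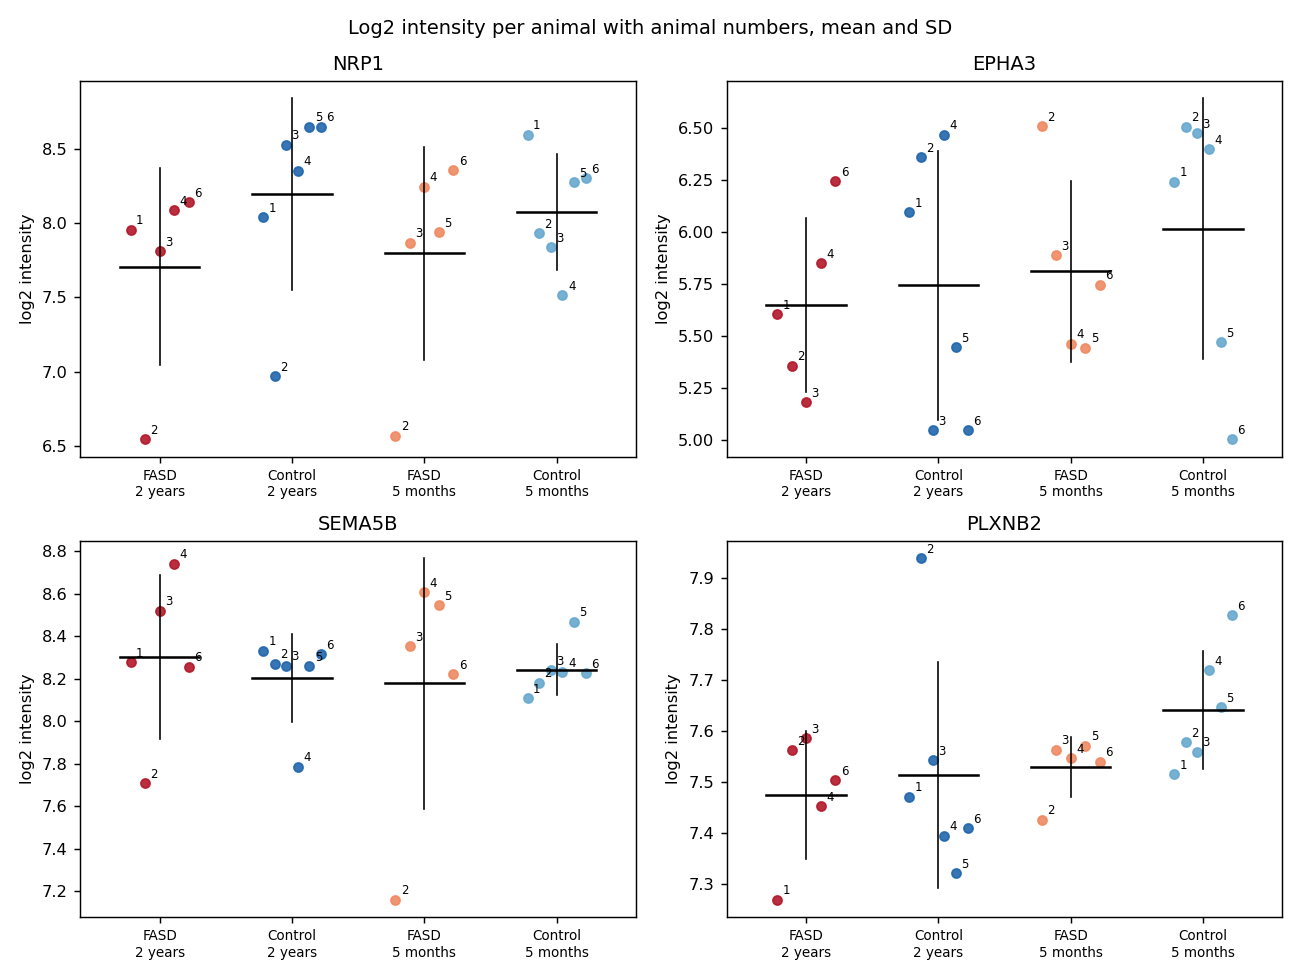
Log2 intensity (y axis, own scale per panel) of 4 guidance probe sets that varied between animals or held a lone value, with animal numbers beside the points and the mean (horizontal line) and SD (vertical line) of each group. In NRP1 animal 2 lies lowest in 3 groups, at 6.55, 6.97 and 6.57, while control animals at 5 months run from 7.51 to 8.59.

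Around these ligands and receptors, a wider list of effectors, co-receptors and other cues held 93 genes, of which 58 were measured by 63 probe sets. For alcohol 4 of 63 had an unadjusted p under 0.05, or 6.35%, against 8.44% of all probe sets. All 4 were lower in FASD animals, as 6.01% of all probe sets were, while 2.43% were higher, a split that depended on scaling. RGMB, a ligand of neogenin, had -0.18, PTPN11, the phosphatase SHP2, had -0.13, CHN2, a Rac-inactivating chimaerin, had -0.19, and ROCK1, a kinase downstream of RhoA, had -0.28. For age 7 of 63 did, or 11.1%, against 9.57%, with 2 higher (4.68% of all probe sets) and 5 lower (4.89%) at 2 years. VAV2, an exchange factor that Eph receptors use, had the lowest p of these, with -0.60 (standard error 0.14, unadjusted p of 0.000415, adjusted p of 0.104). For the interaction 2 did, or 3.175%, against 3.00% of all probe sets. They were RTN4R (0.32), the Nogo receptor, and MICAL3 (0.44), of a family that plexins act through. After adjustment 0 of the 63 passed in any contrast.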

How the data were processed

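The authors hybridized hippocampal RNA to Affymetrix rhesus macaque arrays, all loaded on 1 day, and normalized them by RMA (version: not given in the sources used here). RMA corrects background, sets all arrays to 1 distribution and summarizes each probe set, so deposited values are log2 intensities with no true zero. The authors then kept annotated, detected probe sets, and 2 discarded arrays hold no values. Per the platform annotation 8730 of the 11512 rows have 1 symbol, 88 several and 2694 none. Rows that share a symbol were kept.

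One mean per group was fitted by limma 3.58.1 in R 4.3.3 with empirical Bayes moderation. Values of genes given in full were also permuted exactly within strata (Python 3.11.15, matplotlib 3.10.9 for figures). Given in full were probe sets with an unadjusted p under 0.05 for alcohol, age or the interaction, or under 0.01 in 1 age or exposure, plus EFNB1 and SEMA3C. NRP1, EPHA3, EPHA5, SEMA5B and PLXNB2 were added after their values were seen. The members and lists were chosen with earlier results of these data known. No probe set of the interneuron, astrocyte, microglia, choroid plexus (FOLR1 alone) and thalamic marker lists passed an adjusted p under 0.05, and the blood list had 0 of 5 genes measured. The fit was tested on simulated data, with 200 probe sets changed in the alcohol contrast. At an adjusted p under 0.05 it recovered 37% of them for a log2 change of 0.25 and 93.5% for one of 0.5. Alternatives were a trended robust prior, the methods' analysis of variance, centring, quantile normalization, array weights, rows at or above the median level, 1 row per gene, a replicate block and leaving out each animal. The number of arrays limits the precision.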

Additional observations from a re-analysis of the deposited data

Results flagged for a closer look

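In 14 of 152 checks of a probe set within a group, 1 animal lay far from the rest of its group, measured as its gap to the nearest animal over the group's range. Chance alone flags about 1 in 20 such groups. NRP1 did so in FASD animal 2 at 2 years (6.55), control animal 2 at 2 years (6.97) and FASD animal 2 at 5 months (6.57). SEMA5B did in control animal 4 at 2 years (7.79), FASD animal 2 at 5 months (7.16) and control animal 5 at 5 months (8.47). PLXNB2 did in control animal 2 at 2 years (7.94) and FASD animal 2 at 5 months (7.43). SLIT2 did in FASD animal 2 at 2 years (8.03), and EFNA1 in control animal 5 at 2 years (7.44). DPYSL3 did in FASD animal 2 at 5 months (12.93). In control animals at 5 months, EPHA1 (its probe set other than MmugDNA.14191.1.S1_at) did in animal 1 (6.26), SEMA6D in animal 5 (9.22) and UNC5B in animal 6 (6.94). FASD animal 2 at 5 months accounted for 4 of the 14.

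The FASD minus control difference was not the same at the 2 ages in PLXNA2, with an interaction of 0.27, and in NTN4, with one of 0.34, both by the unadjusted interaction term and neither after adjustment.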

How the results depend on the processing

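Counts here are guidance probe sets of 38 with an unadjusted p under 0.05 in limma. In the main fit the shares of all probe sets were 8.44% for alcohol, 9.57% for age and 3.00% for the interaction. They were 4.83% for alcohol at 5 months, 6.05% for alcohol at 2 years, 6.99% for age in FASD animals and 5.55% for age in control animals. Calls over the whole table also move with the setting, so a moved count is not particular to the guidance probe sets. Array weights gave 5 for alcohol (EFNB1, EFNB3 and DPYSL4 higher, NTN4 and DPYSL3 lower), 3 for alcohol at 5 months, 2 for alcohol at 2 years and 1 for the interaction, with 1674 probe sets called for alcohol over the whole table against 972. Keeping only rows at or above the median level, which drops dim guidance probe sets, gave 0 for alcohol and 0 for alcohol at either age, 1 for age, 1 for the interaction, 1 for age in FASD animals and 2 for age in control animals. The interaction count was 0 with centring, 1 with quantile normalization and 1 with the replicate block, and alcohol at 5 months was 2 with centring, quantile normalization and the analysis of variance. The cause was not tested.

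With 1 animal left out, counts ran from 2 to 5 for alcohol, 3 to 8 for age, 0 to 2 for the interaction, 1 to 2 for alcohol at 5 months, 1 to 5 for alcohol at 2 years, 2 to 5 for age in FASD animals and 2 to 6 for age in control animals. Without control animal 2 at 2 years alcohol had 5 (NRP1, DPYSL3 and DPYSL4 joined) and 1679 calls over the table, against 972 with all animals. Without FASD animal 2 at 5 months alcohol had 4 (EPHA2 and EFNB3 joined), and without FASD animal 1 at 2 years age had 3. Of 100 checks of single probe sets under the other settings, 93 kept direction and side of the threshold, 7 lost the threshold and 0 turned round. The 7 were SEMA3C for age and EPHB6 for age by the analysis of variance, PLXNA2 (centring, quantile normalization, array weights) and NTN4 (centring, 0.30, and replicate block, 0.28). Animals of different groups were also compared by a correlation that is not the whole-array r of 0.972 to 0.995. By this measure same-numbered animals correlated at -0.33 to 0.39 over 30 pairs, with 13 over 0.1 and a mean of 0.07. Pairs of other numbers had 38 of 151 over 0.1 and a mean of -0.01. Animals 2 of FASD at 2 years, control at 2 years and FASD at 5 months correlated at 0.24 to 0.39, while pairs of other numbers reached 0.43. Since neither the labels nor every pair bears out a pairing, the block was an alternative only, and with it NRP1 joined for alcohol (-0.34, unadjusted p of 0.0344) and EPHB1 and EPHA5 for age. Medians of all probe sets moved by under 0.1 with scaling.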
